A study of Mus musculus with 2 samples.

Results

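Ribosomal protein genes were compared between Th17 cells of wild-type mice and of lncRNA-GM-/- mice, in which a long non-coding RNA is deleted. Members were all genes whose symbol is that of a cytoplasmic ribosomal protein of the large (Rpl) or small (Rps) subunit, or of a numbered or lettered relative such as Rpl22l1, and 84 of the 17002 genes listed met this definition. They comprised 46 core genes of the large subunit, 31 core genes of the small subunit, 6 paralogs (Rpl3l, Rpl7l1, Rpl10l, Rpl22l1, Rpl39l and Rps27l) and Rpl32l, which GENCODE annotates as a processed pseudogene. Each genotype was represented by 1 RNA library. The wild-type library and the lncRNA-GM-/- library both came from C57BL/6 mice, from naive CD4+ T cells of the spleen that were kept for 3 days in conditions that polarise T cells to the Th17 fate. No other agent, allele or age was given, nor whether 1 mouse or several were used, and no row was assigned to lncRNA-GM, so the deletion was not checked. The study's title ties this RNA to Th17 differentiation, and the comparison here asks whether the ribosomal protein genes differed between the genotypes.

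The eukaryotic ribosome is made of a small subunit, which decodes the mRNA, and a large subunit, which joins amino acids into protein. Most of its proteins are present in a single copy, and their mRNAs are among the most abundant in dividing cells such as activated T cells. Most of these mRNAs begin with a short run of pyrimidines, the terminal oligopyrimidine (TOP) motif, through which mTOR signalling and the RNA-binding protein LARP1 control their translation. A few ribosomal proteins have a paralog encoded by another gene, and nearly all have processed pseudogenes, which are copies of the mRNA inserted elsewhere in the genome.

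The measure was FPKM (fragments scaled to transcript length and to library size), a unit inferred from the values. Ratios are log2((knockout FPKM + 1)/(wild-type FPKM + 1)), for genes with at least 1 FPKM in 1 library. There were 10998 such genes, 82 of them members; Rpl10l and Rpl39l were below the minimum. With 1 library per genotype there was no replicate spread and no test, and each difference describes these 2 libraries only. Read numbers, where given, were solved from the authors' deposited p-values, at depths of about 19.5 M (wild type) and 19.2 M (knockout) fragments. Intervals are 95% exact (Clopper-Pearson) intervals of the ratio of reads and cover counting error only.

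All 6 measured pan-T and CD4 markers were present in both libraries, from 174.41 FPKM (Cd4) upward in the wild type. All 6 were higher in the knockout, at log2 ratios from 0.01 (Cd3g) to 0.50 (Cd2). The 7 Th17 markers had a median log2 ratio of −0.80, with 6 below 0 and 1 above. Il17f had 1056.14 FPKM in the wild type and 381.88 in the knockout. Batf was at −0.24, and Ccr6, with 3.35 and 4.85 FPKM, was the 1 above 0 (0.43). Markers of CD8 T and NK cells summed to 578.5 FPKM in the wild type and 267.0 in the knockout, and the 6 of 8 that were measured were all lower in the knockout. The highest in the wild type, Cd8b1, had 212.41 FPKM there and 125.93 in the knockout, beside 174.41 and 212.55 for Cd4. Markers of B cells summed to 4.5 and 8.2 FPKM, and those of macrophages and dendritic cells to 32.1 and 71.4 FPKM, wild type first; the 3 and 4 measured genes of these lists were all higher in the knockout, and no marker of the 3 lists was at 0. The part of these differences in the ribosomal protein values was not tested. In bulk RNA, fewer cells of a type and less RNA per cell cannot be told apart.

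The members that the results turn on are shown here by sequence. Rpl34, a protein of the large subunit, and its processed pseudogene Rpl34-ps1 are shown because their rows moved in opposite directions. In GRCm38.p6, Rpl34 lies at chr3:130726827-130730398 on the minus strand and Rpl34-ps1 at chr6:71124589-71125001 on the plus strand. Bases 102 to 348 of the 354-base coding sequence, counted from the A of the start codon, are given from GENCODE M21, 5′ to 3′, with the differing bases in capitals.
Rpl34: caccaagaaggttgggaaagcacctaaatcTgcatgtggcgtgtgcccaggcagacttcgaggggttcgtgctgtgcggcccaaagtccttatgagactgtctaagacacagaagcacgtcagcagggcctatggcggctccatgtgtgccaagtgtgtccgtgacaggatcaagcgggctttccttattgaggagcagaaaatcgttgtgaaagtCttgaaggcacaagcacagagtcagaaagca
Rpl34-ps1: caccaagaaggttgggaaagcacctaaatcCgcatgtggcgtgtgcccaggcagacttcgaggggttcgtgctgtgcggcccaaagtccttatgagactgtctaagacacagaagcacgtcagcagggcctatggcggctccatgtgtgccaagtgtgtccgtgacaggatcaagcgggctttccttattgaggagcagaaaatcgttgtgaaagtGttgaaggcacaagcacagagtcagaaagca
The pseudogene differed from the coding sequence at 2 of 354 bases, T132C and C318G (Rpl34 first), an identity of 99.4%. Both lie at the last position of a codon.

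Rpl39, which lines the exit tunnel of the large subunit, and its paralog Rpl39l are shown as a pair in which the paralog was at the limit of detection. Rpl39 lies at chrX:37082518-37085222 on the minus strand and Rpl39l at chr16:10170197-10174911 on the plus strand. Their whole coding sequences are 156 bases each.
Rpl39: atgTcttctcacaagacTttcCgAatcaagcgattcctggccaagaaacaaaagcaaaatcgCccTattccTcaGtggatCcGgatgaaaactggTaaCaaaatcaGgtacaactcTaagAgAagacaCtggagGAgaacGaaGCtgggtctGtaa
Rpl39l: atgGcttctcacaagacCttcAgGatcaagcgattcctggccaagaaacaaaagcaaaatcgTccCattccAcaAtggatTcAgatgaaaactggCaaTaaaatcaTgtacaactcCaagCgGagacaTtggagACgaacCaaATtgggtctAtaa
They differed at 23 bases, in capitals, an identity of 85.3%.

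Rps27, a zinc-finger protein of the small subunit, and its paralog Rps27l are shown as the pair in which the core gene was higher in the knockout while the paralog was level. Rps27 lies at chr3:90212667-90213648 on the minus strand and Rps27l at chr9:66944624-66949522 on the plus strand. Both coding sequences are 255 bases long.
Rps27: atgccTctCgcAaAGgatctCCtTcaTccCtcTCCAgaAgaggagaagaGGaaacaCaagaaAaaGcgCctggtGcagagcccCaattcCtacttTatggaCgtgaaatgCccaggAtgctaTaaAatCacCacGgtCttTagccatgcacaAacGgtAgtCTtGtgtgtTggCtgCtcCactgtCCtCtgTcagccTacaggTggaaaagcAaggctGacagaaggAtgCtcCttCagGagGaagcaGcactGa
Rps27l: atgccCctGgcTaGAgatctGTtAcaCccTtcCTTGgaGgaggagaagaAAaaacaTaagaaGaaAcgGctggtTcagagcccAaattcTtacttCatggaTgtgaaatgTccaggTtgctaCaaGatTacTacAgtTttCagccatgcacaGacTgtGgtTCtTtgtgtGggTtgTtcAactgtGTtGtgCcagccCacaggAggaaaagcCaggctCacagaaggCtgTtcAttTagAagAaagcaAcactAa
Of their 61 differing bases, in capitals, 53 lie at the last position of a codon, and the identity was 76.1%. Among the other pairs the identity of the coding sequences was 87.9% for Rpl36a and Rpl36al, 84.8% for Rpl10 and Rpl10l, 73.3% for Rpl3 and Rpl3l, 66.9% for Rpl22 and Rpl22l1 and 53.0% for Rpl7 and Rpl7l1.

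Core ribosomal protein genes were among the most abundant transcripts in both libraries. The 77 core genes summed to 115506.6 FPKM in the wild type and 113063.4 in the knockout, which is 22.3% and 22.0% of all FPKM listed. In each library 60 of them were among the 100 most abundant genes. The core median was 1640 FPKM in the wild type and 1570 in the knockout, beside 13.5 and 13.1 for all measured genes, and 51 core genes had at least 1000 FPKM in both libraries. The highest was Rpl23a, a protein at the mouth of the exit tunnel, with 3423.40 FPKM in the wild type and 3494.99 in the knockout. It was followed by Rplp0, the base of the P-stalk, with 3317.08 and 3300.23 FPKM, by Rps26 with 2961.75 and 2988.95 FPKM, and by Rps24 with 2636.03 and 2695.66 FPKM, wild type first. All 4 were within 1.2-fold between the libraries, at log2 ratios of 0.03 (Rpl23a), −0.01 (Rplp0), 0.01 (Rps26) and 0.03 (Rps24).

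The order of the core genes was nearly the same in both libraries. Across the 77 genes the log2 FPKM of the libraries correlated with a Pearson r of 0.986 and a Spearman rho of 0.978, given as a description, since genes of the same 2 libraries are not independent. Levels within the core spanned 67.4-fold in the wild type and 70.0-fold in the knockout. At the low end stood Rps6, the S6 kinase substrate of the small subunit, with 50.77 FPKM in the wild type and 49.93 in the knockout, and it was the only core gene under 100 FPKM. Rps15a followed with 151.12 and 137.05 FPKM, Rps20 with 200.79 and 166.59 FPKM, and Rpl37 with 214.42 and 199.98 FPKM.

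**Figure D1:**
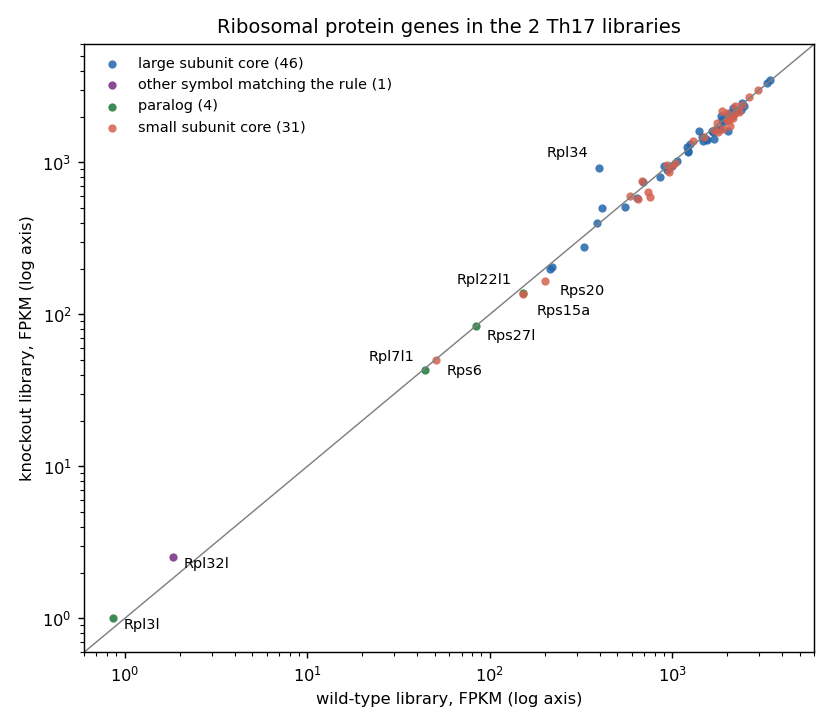
FPKM of the 82 measured members in the wild-type library (horizontal) and the knockout library (vertical), both on log axes, coloured by class; the grey line marks equal values. The core genes lie along the line at high values, Rpl34 stands above it, and the paralogs lie at 151.4 FPKM (Rpl22l1) or less in the wild type.

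Core genes differed little between the genotypes. Of the 77, 72 (93.5%) were within 1.2-fold and 58 within 1.1-fold, whereas 70.5% of all measured genes, and 77.3% of the 736 genes with a mean of at least 100 FPKM, were within 1.2-fold. The median core log2 ratio was −0.06, with 26 genes above 0 and 51 below, beside a median of −0.03 and 44.9% above 0 over all measured genes and a median of 0.01 over the genes with a mean of at least 100 FPKM. Relative to the median of all genes, the core was lower by 0.03 on the log2 scale. It lay further below the genes with a mean of at least 100 FPKM, of which 53.8% were above 0. Those genes include every core gene but Rps6. Their median level in the wild type was 178 FPKM, beside 1640 for the core, so the 2 sets overlap and are not matched in level. In the authors' deposited table, 67 of the 77 core genes (87.0%) had a p-value under 0.05, as did 79.6% of the genes with a mean of at least 100 FPKM and 41.1% of all rows; that p-value compares 1 library with 1 library.

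Members past 1.2-fold were few. Of the 82 measured, 3 exceeded the wild type by 1.2-fold or more (Rpl34, Rpl36 and Rpl32l), where the share over all measured genes was 11.6% and over genes with a mean of at least 100 FPKM 12.4%. Another 3 were at least 1.2-fold lower (Rps28, Rpl3 and Rps20), beside 17.8% of all measured genes and 10.3% of the abundant ones. Rpl34 was the only member at least 1.5-fold higher, where the background was 2.71% and 2.99%, and no member was at least 1.5-fold lower, where it was 5.19% and 3.40%. Without Rpl34, the SD of the core log2 ratios was 0.12.

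**Figure D2:**
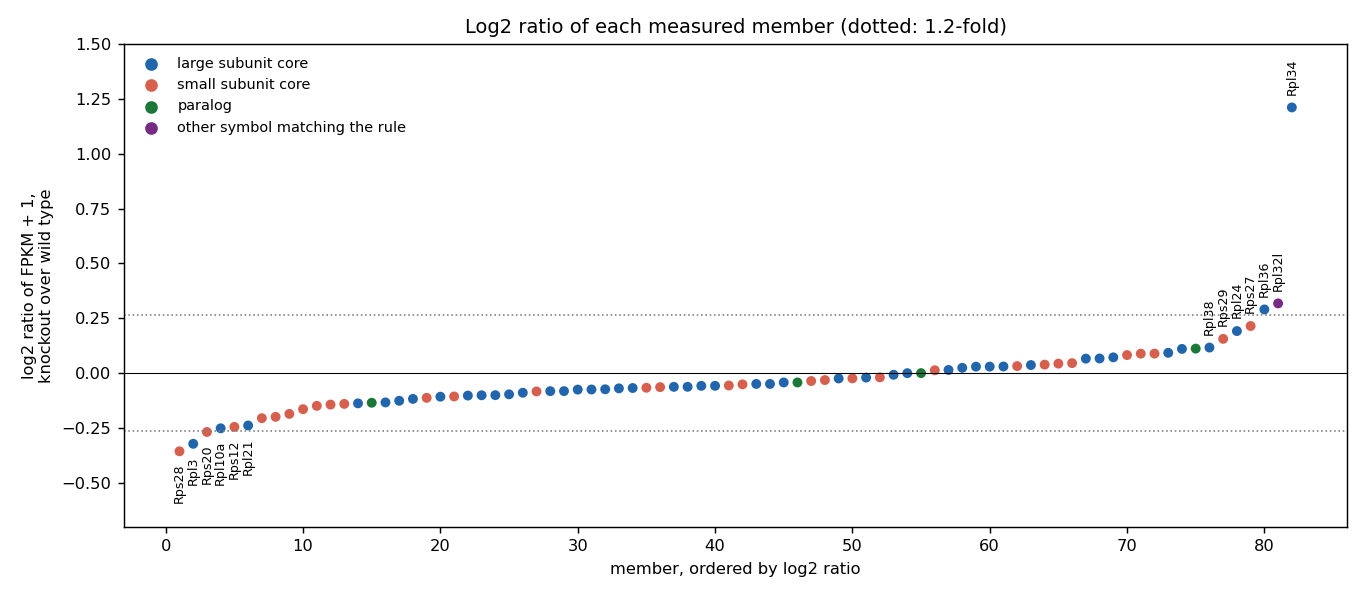
Log2 ratios (on FPKM + 1, knockout relative to wild type) of the 82 measured members in order of their ratio, coloured by class; dotted lines mark 1.2-fold in each direction. Rpl34 stands apart at 1.21, and the other members lie between −0.36 (Rps28) and 0.32 (Rpl32l).

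On the lower side, Rps28, a small protein of the small subunit near the mRNA exit, had 756.96 FPKM in the wild type and 591.21 in the knockout. Its log2 ratio was −0.36 (interval −0.42 to −0.29, from about 4592 and 3529 reads). Rpl3, which reaches towards the peptidyl transferase centre, had 2012.52 and 1609.82 FPKM, a log2 ratio of −0.32 (interval −0.34 to −0.30, about 52442 and 41271 reads). Both intervals leave out 0, but reads of core genes were solved only where the deposited p-value was under 0.05. The intervals therefore restate that p-value, and the spread between cultures is unknown.

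Rps20 was listed with 200.79 FPKM in the wild type and 166.59 in the knockout, a log2 ratio of −0.27. Rpl10a, a component of the L1 stalk where the used tRNA leaves, had 1683.28 and 1414.08 FPKM (−0.25). Rps12, a protein of the small subunit, had 2065.37 and 1742.73 FPKM (−0.24). These genes were lower in the knockout by less than Rps28 and Rpl3.

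On the higher side, Rpl36 had 409.61 FPKM in the wild type and 501.17 in the knockout, a log2 ratio of 0.29 (interval 0.22 to 0.36, about 3150 and 3792 reads). Rps27 had 1871.48 and 2172.22 FPKM, a log2 ratio of 0.21. Rpl24, which forms a bridge to the small subunit, had 1402.30 and 1601.91 FPKM (0.19). Rps29 followed with 679.48 and 757.41 FPKM (0.16), and Rpl38 with 688.70 and 746.81 FPKM (0.12). Apart from Rpl34, no core gene was more than 1.22-fold higher.

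Large and small subunit genes had the same median ratio to 2 decimals. The 46 large subunit genes had a median log2 ratio of −0.06 (range −0.32 to 1.21), with 16 above 0 and 30 below. The 31 small subunit genes had a median of −0.06 (range −0.36 to 0.21), with 10 above 0 and 21 below. The median level was 1540 FPKM in the wild type and 1450 in the knockout for the large subunit, and 1760 and 1640 FPKM for the small subunit. The difference of the median ratios, large minus small, was −0.0015 and changed sign with the treatment. It was 0.05 with means, which include the row of Rpl34 at 1.21 and are raised by it. With members that have copy rows left out, the difference of medians was 0.006. The direction is therefore not fixed by these data.

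Of the 4 P-stalk proteins, which recruit the translational GTPases, all lay slightly below 0. Rplp1 had 2481.38 FPKM in the wild type and 2356.66 in the knockout (log2 ratio −0.07), Rplp2 had 1660.27 and 1584.20 (−0.07), Rpl12 had 2217.26 and 2180.47 (−0.02), and Rplp0, given above, was at −0.01. The proteins that carry the 5S rRNA into the large subunit and bind Mdm2 when ribosome assembly is disturbed were also nearly level. Rpl5 had 1640.72 FPKM in the wild type and 1617.97 in the knockout (−0.02), and Rpl11 had 1224.13 and 1183.19 (−0.05).

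Among 8 proteins that line or surround the exit tunnel, 3 lay at or above 0 and 5 below. Rpl31 had 642.23 FPKM in the wild type and 585.45 in the knockout (log2 ratio −0.13), Rpl4 had 2374.23 and 2204.14 (−0.11), Rpl39 had 857.31 and 801.84 (−0.10), Rpl26 had 2129.58 and 2011.96 (−0.08) and Rpl19 had 2056.23 and 1975.44 (−0.06). Rpl35, the binding site of the signal recognition particle together with Rpl23a, had 1979.61 and 1979.63 FPKM, and Rpl17 had 1866.55 and 1898.41 (0.02). No tunnel protein was past 1.2-fold.

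Of 5 small subunit proteins at the mRNA entry and decoding sites, Rps3 had 734.85 FPKM in the wild type and 637.38 in the knockout (log2 ratio −0.20), and Rps2 had 1893.46 and 1649.31 (−0.20). Rps15 and Rps23 were on the other side, with 1993.23 and 2110.53 FPKM (0.08) and with 2214.42 and 2355.70 FPKM (0.09). Proteins of the same region thus lay on both sides of 0. Diamond-Blackfan anaemia is a failure of red cell formation caused by ribosomal protein mutations. A chosen list of 18 core genes known from it had a median of −0.01 with 9 above and 9 below. The list was not checked for completeness, and the balance holds for these 18 only.

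Some ribosomal proteins have symbols outside the pattern. Rack1, the signalling scaffold on the small subunit, had 1804.41 FPKM in the wild type and 1654.70 in the knockout (log2 ratio −0.12). Fau, which encodes a small subunit protein fused to a ubiquitin-like protein, had 1260.47 and 1337.99 FPKM (0.09). Neither was past 1.2-fold.

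Paralogs were low in FPKM beside their core partners, with the exception of Rpl22l1. Rpl22l1, the paralog of Rpl22 and known for its part in T cell development, had 151.40 FPKM in the wild type and 137.81 in the knockout, whereas Rpl22 had 220.05 and 204.95. Rpl22l1 made up 40.8% of the FPKM of this pair in the wild type and 40.2% in the knockout. Both genes were slightly lower in the knockout, at log2 ratios of −0.13 (Rpl22l1) and −0.10 (Rpl22). Reads of Rpl22l1 could not be solved, since its deposited p-value was not under 0.05, so its ratio has no interval. FPKM is scaled to length, and the 2 genes differ in it. Annotated coding transcripts of Rpl22l1 have 525 to 552 nt, while reads and FPKM of Rpl22 gave a length of 2068 nt. The share of reads can therefore differ from the share of FPKM and was not obtained.

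Rps27l, a paralog known as a p53 target, had 83.80 FPKM in the wild type and 83.81 in the knockout, a share of 4.29% and 3.71% of its pair with Rps27. The share was lower in the knockout through the core gene, since the level of the paralog was equal. Rpl7l1, a nucleolar relative of Rpl7, had 44.21 FPKM in the wild type and 42.90 in the knockout beside 1813.06 and 1661.59 FPKM of Rpl7, a share of 2.38% and 2.52%. Rpl36al, which lies outside the symbol pattern, had 353.34 and 343.08 FPKM beside 1058.85 and 1017.34 of Rpl36a, a share of 25.0% and 25.2%.

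The remaining paralogs were at the limit of detection. Rpl3l, the muscle paralog of Rpl3, had 0.86 FPKM in the wild type and 1.01 in the knockout. The p-value gave about 35 and 42 reads, with an interval of the log2 ratio from −0.40 to 0.98. Those reads and the FPKM give a length of 2084 nt, beside a longest annotated coding transcript of 1375 nt. The reads and interval of Rpl3l are therefore uncertain. Rpl39l, known from the testis and shown by sequence above, had 0.93 FPKM in the wild type, about 10 reads, and was listed at 0 in the knockout. The interval of the log2 ratio ended at −1.14, and the authors' deposited table gives p = 0.00107 for this gene. Rpl10l, a retrogene of Rpl10 used in male germ cells, had 0.05 FPKM in the knockout, which is 1 read, and a listed 0 in the wild-type library. Rpl32l had 1.84 and 2.54 FPKM, about 20 and 28 reads, with an interval from −0.37 to 1.41, so that its place past 1.2-fold was not distinguishable from equality at this depth.

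The 4 measured paralogs had a median log2 ratio of −0.02, with 2 above 0 and 2 below. The core median was −0.06, and the difference of 0.04 is within the range of the paralogs, from −0.13 to 0.11.

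Near-identical copies bear on nearly every member. Of the 84 members 80 had 1 or more other annotated transcripts whose identity reached 95% across 50% or more of the shorter sequence. The median was 5 copies, and Rpl21 had the most, 62. For 14 members such a copy had a row of its own, and RSEM divides reads that fit several transcripts between them. Members were therefore also summed with their copies in FPKM, which is not a sum of reads, because the lengths differ.

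The row of Rpl34 was the member furthest from 0. Rpl34 was listed with 398.40 FPKM in the wild type and 923.52 in the knockout, a log2 ratio of 1.21. Rpl34-ps1, which differs from it in the bases capitalised above, was listed with 787.15 FPKM in the wild type and 0.90 in the knockout, 415-fold lower on the FPKM + 1 scale (log2 ratio −8.70). A further copy, the processed pseudogene Gm4705, had 38.57 and 27.61 FPKM. Summed, the 3 rows gave 1224.12 FPKM in the wild type and 952.03 in the knockout, a log2 ratio of −0.36, so the direction for Rpl34 was opposite alone and summed. Copies held 67.5% of the sum in the wild type and 3.0% in the knockout. Reads of Rpl34 could not be solved, since the authors' deposited table gives its p-value as 0.

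**Figure D3:**
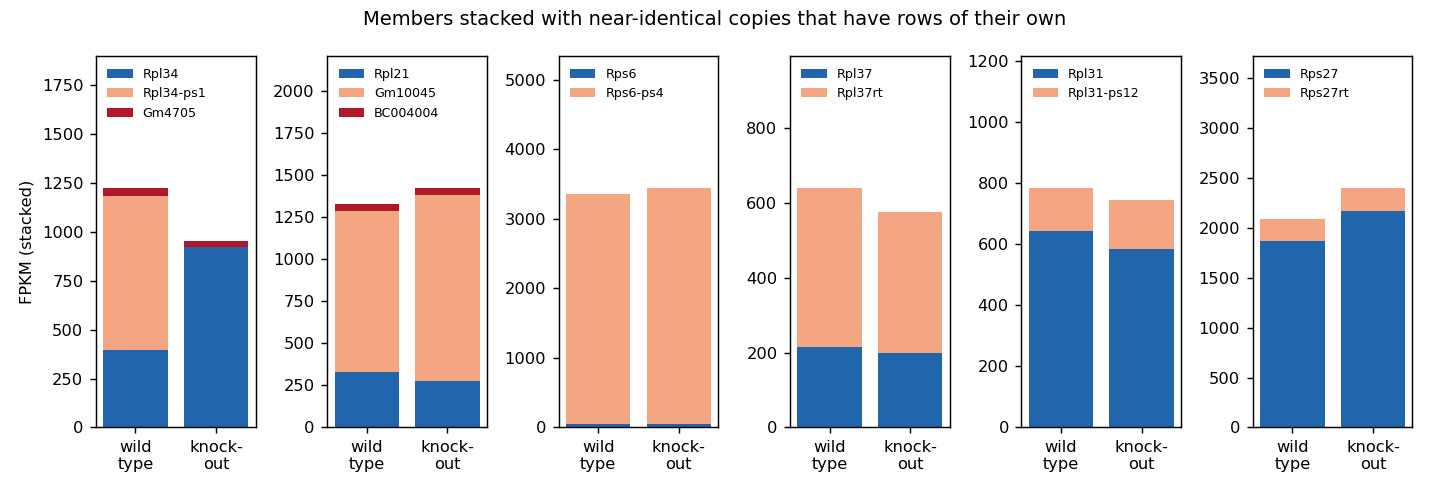
FPKM of 6 members stacked with the rows of their near-identical copies, in the wild-type and the knockout library; each panel starts at 0 and has its own scale. The Rpl34 stack is nearly all Rpl34 in the knockout but mostly Rpl34-ps1 in the wild type, while the makeup of the other stacks is close in both libraries.

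Rpl21 also changed direction with its copies. Alone it had 328.20 FPKM in the wild type and 278.06 in the knockout (log2 ratio −0.24). Its processed pseudogene Gm10045 had 958.72 and 1107.78 FPKM, and BC004004, a gene with a transcript nearly identical to that of Rpl21, had 41.40 and 38.50. The sum was 1328.32 FPKM in the wild type and 1424.34 in the knockout, a log2 ratio of 0.10.

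The lowest core gene, Rps6, stood beside a row for its processed pseudogene Rps6-ps4 with 3313.77 FPKM in the wild type and 3394.31 in the knockout. The pseudogene row held 98.5% of the wild-type sum of 3364.54 FPKM, beside 3444.24 in the knockout, at a log2 ratio of 0.03. With its copy, Rps6 would therefore stand among the highest core genes rather than at the bottom. The low listed level of Rps6 belongs to 1 row of a pair, and the level of the gene itself cannot be read from it.

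Rpl37 had less in its own row than its retrogene Rpl37rt, which was listed with 424.66 FPKM in the wild type and 376.30 in the knockout, and the sum had a log2 ratio of −0.15. Rpl31-ps12 had 141.46 and 160.48 FPKM, so that Rpl31 moved from −0.13 alone to −0.07 summed. Rps27rt, whose coding sequence is identical to that of Rps27, had 220.10 and 227.41 FPKM, and Rps27 stayed higher in the knockout when summed (0.20). With 13 members summed with their copies and Rpl32l, itself a copy of Rpl32, kept as a row of its own, 2 members exceeded 1.2-fold upward (Rpl36 and Rpl32l) and 4 downward (Rps28, Rpl3, Rps20 and Rpl34).

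Read numbers set the FPKM levels in another light. Reads could be solved for 66 of the 77 core genes, those whose deposited p-value was under 0.05 and above 0. They ranged from 3150 to 83519 in the wild-type library with a median of 20269. Rpsa, the laminin-receptor protein of the small subunit, had the most, 83519 reads at 2305.31 FPKM. The reads per FPKM give an approximate length by which each gene was scaled, with a median of 702 nt over the solved core genes. This length did not always match the annotation. Among genes with 1 annotated coding transcript, it was 752 nt beside 780 nt for Rpl13. It was 589 nt beside 1109 nt for Rps16, and 525 nt beside 937 nt for Rps23.

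Some genes among the lowest in FPKM ranked higher by reads, though still below the median. Rps15a had 151.12 FPKM but about 15276 reads in the wild type, which gives a length of 5177 nt; its longest annotated coding transcript has 5179 nt and its shortest 250. Rps20 had 200.79 FPKM and about 13576 reads, a length of 3463 nt beside an annotated 3706 nt. For Rpl21 the reads gave 1807 nt beside a longest transcript of 1856 nt, and for Rpl22 2068 nt beside 2051 nt. Reads of these genes were all below the median of the solved core genes, 20269, and above the lowest, 3150 (Rpl36). Their rank by FPKM rests in part on the length by which each was scaled. Ranks with other transcript lengths were not computed, and Rps20 has only 1 annotated coding transcript. Over the 66 solved genes, the log2 ratio correlated with the length from reads at a Pearson r of −0.321 and a Spearman rho of −0.343. The ratio itself enters that length, and the p-value limited the genes. With the shortest annotated coding transcript, over all 77 core genes, r was −0.206 and rho −0.227. These values are descriptions across genes that share 2 libraries.

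**Figure D4:**
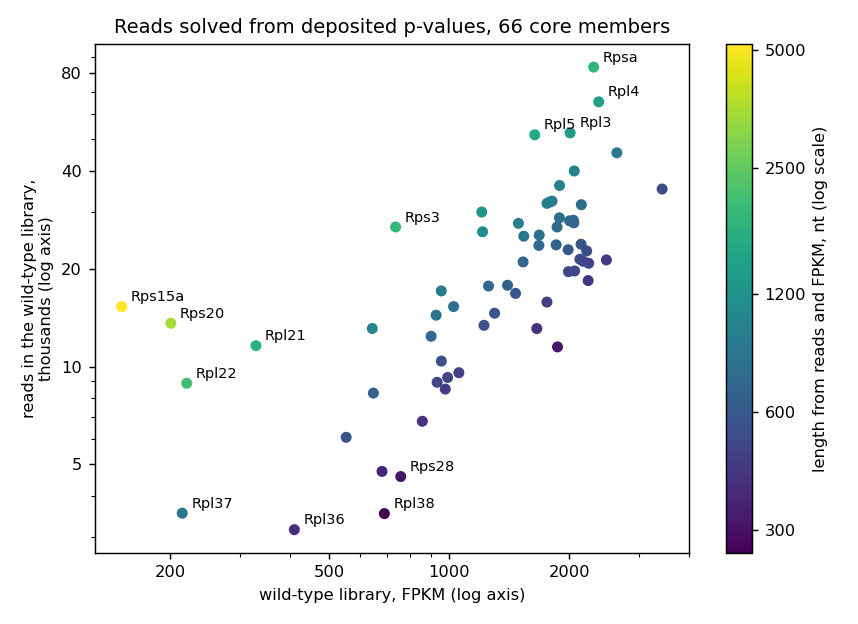
Reads of 66 core genes in the wild-type library against their FPKM, both on log axes; colour gives the length that relates the 2 values. Rps15a, Rps20, Rpl21 and Rpl22 lie at the left with low FPKM. Their reads, about 8886 to 15276, lie below the median of 20269 and above the lowest value, 3150 (Rpl36).

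Other genes of the translation machinery did not all follow the core. Translation factors with TOP mRNAs, which are regulated together with ribosomal protein mRNAs, had a median log2 ratio of −0.10 over 13 genes, with 3 above 0 and 1 at least 1.2-fold lower, beside 17.8% of all measured genes. That gene was Eif3h, a subunit of the initiation factor eIF3, with 443.71 FPKM in the wild type and 362.41 in the knockout (log2 ratio −0.29). Eef1b2, an elongation factor subunit, had 445.14 and 376.67 FPKM (−0.24), whereas Eef1d had 126.38 and 136.54 (0.11) and Eif4b had 153.92 and 157.29 (0.03).

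Nucleolar and ribosome biogenesis factors lay on the other side, with a median of 0.20 over 35 genes. Of these 27 were above 0, 7 exceeded 1.2-fold upward and 0 downward, beside the 11.6% and 17.8% of all genes. Nolc1, a nucleolar chaperone of small nucleolar RNPs, had 38.83 FPKM in the wild type and 54.49 in the knockout (log2 ratio 0.48). Nop10, a part of the pseudouridine-forming RNPs, had 60.63 and 84.69 FPKM (0.48). The lowest were Nop58, with 77.97 and 71.02 FPKM (−0.13), and Utp4, with 45.15 and 41.34 (−0.12). The core ribosomal protein genes and the factors that assemble them thus had medians of opposite sign; without replicates this difference was not tested.

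RNA polymerase I and its factors, which transcribe rRNA, had a median of 0.06 over 11 genes with 0 past 1.2-fold, from Taf1c with 8.43 FPKM in the wild type and 7.41 in the knockout to Polr1e with 4.62 and 5.74. Among 15 regulators of TOP mRNAs and of ribosome number, the median was 0.20, with 4 at least 1.2-fold higher and 2 lower, beside 11.6% and 17.8% of all measured genes. Myc, which drives ribosome biogenesis, had 114.59 FPKM in the wild type and 147.07 in the knockout (log2 ratio 0.36), and Mycn had 14.05 and 3.69 (−1.68). Larp1 had 83.26 and 107.66 FPKM (0.37), and the S6 kinase gene Rps6kb1 had 26.84 and 22.15 (−0.27).

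The proteins of the mitochondrial ribosome, a separate machine encoded in the nucleus, had a median log2 ratio of −0.02 over 78 genes, with 36 above 0, 5 past 1.2-fold upward and 9 downward. The shares past 1.2-fold over all measured genes were 11.6% and 17.8%. The SD of their log2 ratios was 0.18, as it was for the cytoplasmic core (0.18, or 0.12 without Rpl34), at far lower levels with a median of 32.9 FPKM in the wild type. Mrpl35 was lowest, with 18.61 FPKM in the wild type and 13.69 in the knockout (−0.42), next to Mrps22 with 25.74 and 19.20 (−0.40). Mrps5 was highest, with 36.15 and 45.75 FPKM (0.33), next to Mrpl52 with 87.98 and 110.36 (0.32).

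The sequence around the transcription start was examined as a feature that the symbols did not use. RefSeq promoters (GRCm38.p6, 250 bases before to 50 after the start) matched 57 of the 77 core genes and all 6 paralogs. Windows of 40 bases before to 15 after the first listed start are shown 5′ to 3′ on the transcribed strand, with the longest pyrimidine run within 20 bases of the start in capitals where it lies in the window. They were picked to show runs that cover the start in core genes, with Rps28 as a core gene without a long run, and paralogs beside them.
Rps27, chr3:90213634-90213688, minus strand: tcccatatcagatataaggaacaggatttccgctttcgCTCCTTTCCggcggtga
Rps6, chr4:86857353-86857407, minus strand: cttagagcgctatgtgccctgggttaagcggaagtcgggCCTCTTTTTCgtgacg
Rps24, chr14:24490638-24490692, plus strand: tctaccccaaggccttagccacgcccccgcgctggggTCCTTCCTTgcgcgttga
Rpl38, chr11:114668540-114668594, plus strand: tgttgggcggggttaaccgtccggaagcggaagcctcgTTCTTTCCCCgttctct
Rpl35, chr2:39005117-39005171, minus strand: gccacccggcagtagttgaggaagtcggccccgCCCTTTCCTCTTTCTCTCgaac
Rps28, chr17:33824548-33824602, minus strand: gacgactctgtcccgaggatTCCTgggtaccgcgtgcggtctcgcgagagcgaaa
Rps27l, chr9:66946046-66946100, plus strand: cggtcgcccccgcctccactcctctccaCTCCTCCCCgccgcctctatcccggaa
Rpl22l1, chr3:28805468-28805522, plus strand: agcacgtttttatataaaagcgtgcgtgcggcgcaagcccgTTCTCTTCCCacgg
Rpl39l, chr16:10170188-10170242, plus strand: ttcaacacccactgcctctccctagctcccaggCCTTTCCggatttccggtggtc
The first 5 have a run of 9 to 18 pyrimidines across the start, while Rps28 has none longer than 4. A relation between run length and ratio was not tested. Rpl24, at a log2 ratio of 0.19, has a longest run of 3, and Rps12, at −0.24, has one of 11.

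Pyrimidine runs at the start were more frequent in core genes than over the whole promoter table, a count given without a test. A run of at least 8 pyrimidines within 20 bases of the start was present in 26 of 57 core genes (45.6%), beside 15.9% of the 27025 genes in the promoter table. The motif CTTTCC or a close variant (spelled CTTTTC, or else CTTTCT, or else CTTTTT, all of which can overlap each other) was found on the transcribed strand of the same window in 17 of 57 (29.8%), beside 6.11% of all genes. On the opposite strand the shares were 5.26% and 5.57%, and on either strand 33.3% and 11.5%. At least 5 pyrimidines from the first transcribed base on were present in 15 of 57 core genes (26.3%), 4.36% of all genes, 1.45% of 69 mitochondrial ribosomal protein genes and 0 of 6 paralogs. An annotated start can be some bases off the true one, and a match is a description of the letters, not a site.

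**Figure D5:**
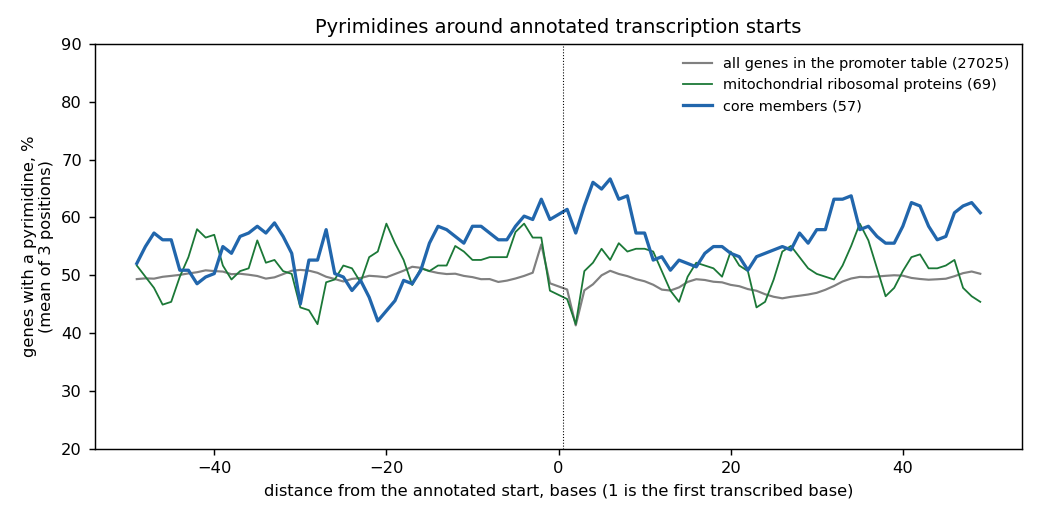
Share of genes with a pyrimidine at each base around the annotated start (mean over 3 neighbouring positions) for 57 core genes, 69 mitochondrial ribosomal protein genes and all 27025 genes with a promoter. Just after the start the core line lies above both other lines.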

How the data were processed

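Per the labels' protocols, total RNA of 2 Th17 cultures was extracted with TRIzol and run on an Illumina HiSeq. Filters and strandedness are not given in the sources used here, and the submitters' processing notes name Bowtie2, RSEM and GRCm38.p6 without versions. A single deposited table held 17002 genes. Its expression values were read as FPKM made by the authors, inferred from column sums of 517664 and 514343. The authors' deposited log2 ratio could be recomputed in every row (to 0.001, replacing each 0 by 0.01) and was not used further. The authors' deposited p-value gave the reads. Their FDR column is above 1 in 443 rows; it was regarded as a deposited score and gave no result.

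Members and lists were chosen with earlier results of these data known. The measure was log2((knockout FPKM + 1)/(wild-type FPKM + 1)) for genes of at least 1 FPKM in 1 library, counted at 1.2-fold and 1.5-fold. Genes were named by a rule: paralogs; the 6 highest and 6 lowest core ratios; the 4 highest and 4 lowest core levels; all P-stalk, 5S RNP and exit tunnel proteins; ribosomal proteins outside the pattern; members with a pseudogene row; and the 2 highest and 2 lowest ratios of each related list among genes of at least 5 FPKM. Rpsa, Gm10045, BC004004, Rpl37rt and Rps27rt, and the promoter windows, were picked after their values were seen. A gene that the rule holds is not reported here.

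The p-values follow the Audic-Claverie comparison of 2 libraries with 50.4% of reads in the wild type. For genes listed at 0 in the knockout it gave whole reads within 0.05 for 1063 of 1067 (99.6%), and for those listed at 0 in the wild type for 807 of 811 (99.5%). Reads of members were solved from p, taking the depth-scaled ratio of reads to equal the FPKM ratio, where p was under 0.05; reads of members at low levels were the whole numbers that fit. Depth was 19.5 M (quartiles 18.6 and 19.9) in the wild type and 19.2 M (18.3 and 19.6) in the knockout over 285 genes with 1 transcript of at least 1500 nt. Reads carry no molecular identifiers, so the 95% intervals hold for counting error alone. The steps were tested on simulated data.

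Copies were searched in GENCODE M21 (GRCm38) transcripts with BLAST 2.17.0, over at least 100 aligned bases; all 84 members were found in it and in the RefSeq gene table. Tools were Biopython 1.88, matplotlib 3.10.9, scipy 1.17.1, pandas 2.3.3, numpy 2.4.6 and Python 3.11.15. Other pseudocounts (0.01 and 5), FPKM minimums, scalings, means and the treatment of copies were tried as alternatives. The read, promoter and 100 FPKM steps were added after the data were seen.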

Additional observations from a re-analysis of the deposited data

How the results depend on the processing

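No paired analysis was possible because each genotype had 1 library. The member median (−0.05), the core minus paralog difference (−0.04) and the counts past 1.2-fold kept their direction, the counts within 1.5 times, under other pseudocounts, FPKM minimums and scalings; the member median also did so with means and other handling of copies, as did the counts with the latter. The member median became −0.0259 with the knockout rescaled to a median of 0 and −0.0261 as a mean, and the core minus paralog difference became −0.0152 at a minimum of 5 FPKM. The large minus small subunit difference of −0.0015 became 0.0505 with the mean of the members and 0.006 with members that have copy rows left out. With the knockout rescaled to a median of 0, the Diamond-Blackfan genes became 0.0177 and the mitochondrial ribosomal proteins 0.0108. At a pseudocount of 5, biogenesis factors moved to 0.14 and regulators to 0.15. With each row alone in place of the sum with copies, Rpl34 was 1.21, Rpl21 −0.24 and Rps6 −0.0236, the opposite sign of their sums (−0.36, 0.10 and 0.03), and Rpl31 was −0.13 and Rpl37 −0.10. Reads of 10 or fewer limit Rpl39l and Rpl10l.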
